A study of Capra hircus with 3 samples.

Results

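The genes described here are 10 core genes of transforming growth factor beta (TGF-beta) signalling: the ligands TGFB1, TGFB2 and TGFB3, the receptors TGFBR1, TGFBR2 and TGFBR3, and the intracellular transducers SMAD2, SMAD3, SMAD4 and SMAD7. They were chosen by symbol and found through their NCBI gene IDs, and all 10 are among the 13023 protein-coding genes with a deposited value. Mammary gland tissue came from Laoshan dairy goats that were 4 years old and in the third lactation, with no treatment but anaesthesia. RNA of 5 goats was mixed into 1 library at each of 3 stages: early lactation (day 10 after parturition), peak lactation (day 90) and late lactation (day 210). The 15 tissue samples came from surgery. The paper names 5 goats in all, so the stages appear to share animals, with later samples taken after earlier surgery. The values are FPKM, fragments of a gene scaled to transcript length and to library size, so levels of different genes are compared per length. With 1 pooled library per stage there is no spread between replicates, and no difference given here has a replicate check or a p-value. The number of reads behind each FPKM is unknown, so no counting interval is given either. A gene was counted as different between libraries where its FPKM differed at least 2-fold.

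TGF-beta ligands are secreted in a latent complex, bound to their own propeptide and to latent TGF-beta binding proteins of the matrix, and must be released before they can signal. The free ligand binds the type II receptor TGFBR2, which phosphorylates the type I receptor TGFBR1, while TGFBR3 (betaglycan) presents ligand, TGFB2 above all. TGFBR1 phosphorylates SMAD2 and SMAD3, which join SMAD4 and enter the nucleus, and SMAD7 is a target of the pathway that blocks the receptor. In the mammary gland the pathway is known for restraining ductal growth, for acting on milk secretion, and for a part in cell death and remodelling at involution, the return of the gland to its resting state after milking ends.

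The label of a library has to be read with care in these data. FPKM of annotated lncRNA genes were set beside the FPKM per library published with the study for transcripts of the same genes. The published list holds lncRNAs that the study called different between stages, so only such genes were compared. For late over peak lactation, the direction by label was the same for 20 of 148 genes, and for 128 once the columns labelled peak and late lactation were exchanged. For late over early lactation, it was the same for 58 of 135 genes by label and for 117 with the columns exchanged. For peak over early lactation, 36 of 67 genes by label and 43 with the exchange hardly told the assignments apart. The terms early-, peak- and late-labelled library are used for that reason, since the peak-labelled library may be that of late lactation. With the columns exchanged, each difference of the peak-labelled library would be one of late lactation, and each value close between the early- and late-labelled libraries would be close between early and peak lactation.

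Marker genes of cell types differed between the libraries, and in bulk tissue fewer cells of a type and less RNA per cell cannot be told apart. The most abundant locus of each library held 30.0%, 46.0% and 29.9% of the summed FPKM in the early-, peak- and late-labelled libraries. It was not identified, may differ between libraries, and was not among the 9 genes summed below. The milk genes CSN1S1, CSN3, BTN1A1 and XDH were present at high levels in every library, the usual state of lactating mammary gland. The summed FPKM over 9 milk protein and secretory genes was 127153, 33998 and 73896 in the same order. LALBA, alpha-lactalbumin, was listed at 0 in the late-labelled library, where CSN1S1 and CSN3 were abundant, so a listed 0 here may be a failed estimate. LTF, another of the 9 genes, had 1074, 556 and 75.3 FPKM. Without LALBA the sums over 8 genes were 57100, 18784 and 73896 FPKM, so that the late-labelled library was above the early-labelled one and the peak-labelled library stayed lowest. In the peak-labelled library 6 of the 9 genes were at least 2-fold lower than in the early-labelled one, and KRT8 and KRT18, the luminal keratins, were not among them. The summed T cell, B cell, myeloid and fibroblast markers were, like TGFB1 and TGFB3, highest in the peak-labelled library, with CD3E and LUM as single markers that were not. T cell markers summed to 16.4, 42.0 and 6.58 FPKM, with CD3D, CD3G, CD2 and CD8A, 4 of 5 genes, at least 2-fold higher in the peak- than in the early-labelled library and CD3E listed at 0 in both and at 1.43 FPKM in the late-labelled one. B and plasma cell markers summed to 271, 448 and 339 FPKM, mostly JCHAIN, with 4 of 6 at least 2-fold higher. Macrophage and myeloid markers summed to 79.1, 107 and 45.7 FPKM, with 6 of 6 higher and 0 at least 2-fold. Fibroblast markers summed to 135, 168 and 108 FPKM, with 4 of 5 higher and 1 (PDGFRA) at least 2-fold, while LUM had 47.6, 32.1 and 40.2 FPKM. The choice of genes matters here. The collagen genes COL1A1 (78.2, 46.3 and 59.0 FPKM), COL1A2 and COL3A1, outside this list, were lowest in the peak-labelled library. COL6A3, in the list, was highest there at 39.4, 52.4 and 33.3 FPKM. Endothelial markers (142, 134 and 154 FPKM), myoepithelial markers (185, 191 and 193 FPKM) and adipocyte markers (21.2, 7.82 and 10.5 FPKM) did not have that pattern. The part of these differences in the values of TGFB1, TGFB3 and SMAD3 was not tested.

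The peak-labelled library stood apart from the others for these genes. It held the highest value of 7 of the 10 genes and the lowest of the other 3, the receptors, of which TGFBR1 and TGFBR2 turned sign under a rescaling. TGFB1 and TGFB3 were at least 2-fold higher than in the early-labelled library, and no member was 2-fold lower. Over all protein-coding genes, 17.7% differed at least 2-fold between these libraries, 10.9% higher in the peak-labelled and 6.8% higher in the early-labelled library. The count of 2 in 10 members is near that background. The median log2 ratio was 0.23 over the members and 0.01 over all protein-coding genes above 0 in both libraries. Between the late- and early-labelled libraries no member differed 2-fold, against a background of 8.71% (1.97% higher and 6.74% lower in the late-labelled library), and the medians were -0.05 and -0.03. TGFB1, TGFB3 and SMAD3 were at least 2-fold lower in the late- than in the peak-labelled library, 3 of 10 members. Of all genes 25.9% differed 2-fold between these libraries, 17.4% lower and 8.56% higher in the late-labelled one, so this count too is near the background. Each comparison shares a library with the other two. Rescaling FPKM without the 20 most abundant loci moved the median log2 ratio of genes of at least 1 FPKM from -0.03 to 0.21 for peak over early, with 16.1% of all genes then 2-fold higher and 4.47% lower, and SMAD3 joined TGFB1 and TGFB3. Rescaling to the sum over all loci gave 13.8% higher and 5.21% lower, and for late over peak the first rescaling gave 6.11% higher and 21.2% lower.

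**Figure D1:**
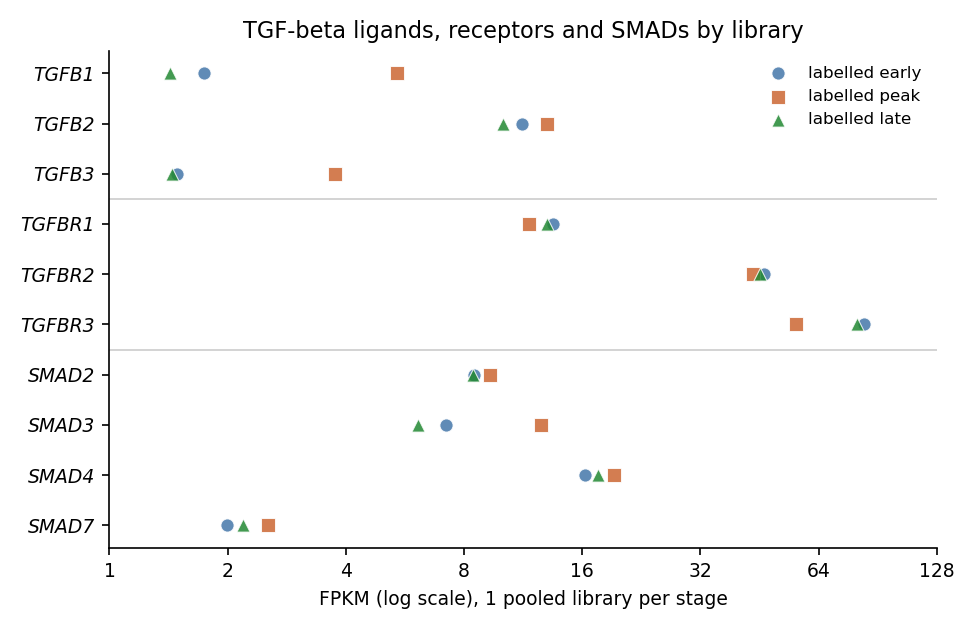
FPKM of each gene (horizontal axis, log scale) in the early-labelled (circle), peak-labelled (square) and late-labelled (triangle) library, 1 pooled library per point. The circle and the triangle lie close together for every gene, while the square of TGFB1, at 5.40 FPKM, and that of TGFB3, at 3.75 FPKM, lie far to the right of both.

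Among the ligands, TGFB2 was the most abundant in all 3 libraries. TGFB2 is the isoform that depends most on TGFBR3 for binding to the type II receptor. Its FPKM was 11.2 in the early-labelled, 13.0 in the peak-labelled and 10.1 in the late-labelled library. The highest and lowest of these values were 1.29-fold apart, so TGFB2 was nearly level.

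TGFB1, the isoform made by most cell types including immune cells and the best known for its part in fibrosis, had 1.74, 5.40 and 1.43 FPKM in the early-, peak- and late-labelled libraries. Its value in the peak-labelled library was 3.10 times that in the early-labelled and 3.79 times that in the late-labelled library, while the last of these libraries was close to the early one at a ratio of 0.818. Its FPKM exceeded that of 16.9% of detected protein-coding genes in the early-labelled, 39.6% in the peak-labelled and 15.4% in the late-labelled library. Of all protein-coding genes, 3.90% had a higher ratio of peak- over early-labelled FPKM than TGFB1.

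TGFB3, which is known for its rise in milk-filled alveoli once suckling stops, had 1.48, 3.75 and 1.45 FPKM in the same order. The peak-labelled value was 2.52 times the early-labelled one and 2.59 times the late-labelled one. On log2(FPKM + 1) its log2 ratio of peak over early was 0.93 and that of late over peak -0.96, both short of 2-fold. A higher ratio of peak- over early-labelled FPKM was found for 6.46% of all protein-coding genes. TGFB1 and TGFB3 thus shared a pattern, with close values in the early- and late-labelled libraries and a higher one in the peak-labelled library.

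While TGFB2 was nearly level, the make-up of the ligand RNA differed in the peak-labelled library. TGFB2 held 77.7% of the summed ligand FPKM in the early-labelled, 58.7% in the peak-labelled and 77.8% in the late-labelled library. The share of TGFB1 was 12.1%, 24.4% and 11.0%, and that of TGFB3 was 10.3%, 16.9% and 11.2%. The summed ligand FPKM was 14.5, 22.1 and 12.9. The most abundant isoform stayed TGFB2, at 6.44 times TGFB1 in the early-labelled, 2.41 times in the peak-labelled and 7.05 times in the late-labelled library.

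**Figure D2:**
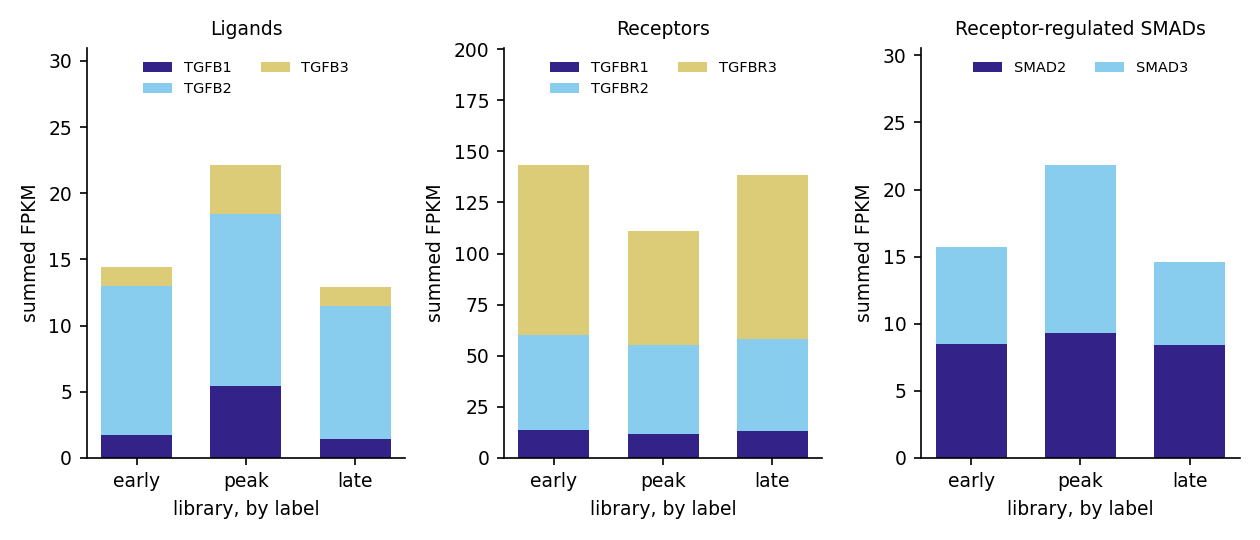
Stacked bars of FPKM for the ligands, the receptors and the receptor-regulated SMADs by library label (horizontal axis), on linear axes from 0 with 1 pooled library per bar. The ligand bar is tallest in the peak-labelled library, at 22.1 FPKM, where TGFB1 and TGFB3 take larger parts, while the receptor bar is lowest there, at 111 FPKM, through a smaller TGFBR3 part.

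Among the receptors, TGFBR3 and TGFBR2 were the most abundant of the 10 members in every library, and TGFBR1 stood well under both. TGFBR3 had 83.4, 56.0 and 80.2 FPKM in the early-, peak- and late-labelled libraries, above the value of 97.0%, 96.4% and 96.7% of the protein-coding genes detected there. The peak-labelled library was the low one, and the early- and late-labelled values were 1.49 and 1.43 times its value, short of 2-fold.

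TGFBR2, the type II receptor that binds ligand directly, had 46.5, 43.5 and 45.3 FPKM in the early-, peak- and late-labelled libraries. The largest difference between these libraries was 1.07-fold, the smallest range of any member. TGFBR1, the type I receptor kinase that carries the signal to the SMADs, had 13.5, 11.7 and 13.0 FPKM, a range of 1.15-fold. For both, the sign of the small difference between the peak- and the early-labelled library turned when FPKM were rescaled without the most abundant loci, so no direction is given for them. TGFBR3 kept its lower value in the peak-labelled library under each rescaling.

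The relative RNA levels of the receptors also differed mainly through TGFBR3. FPKM of TGFBR3 were 1.79 times those of TGFBR2 in the early-labelled, 1.29 times in the peak-labelled and 1.77 times in the late-labelled library. The ratio of TGFBR2 to TGFBR1 was 3.45, 3.72 and 3.49. The summed receptor FPKM was 143, 111 and 138, and it was 9.92, 5.02 and 10.7 times the summed ligand FPKM. The early- and late-labelled libraries were close in each of these ratios, and the peak-labelled library was the one that differed.

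SMAD3 varied the most among the SMADs. SMAD3, which binds DNA directly and carries much of the transcriptional response to TGF-beta, had 7.22, 12.5 and 6.12 FPKM in the early-, peak- and late-labelled libraries. The peak-labelled value was 1.74 times the early-labelled and 2.05 times the late-labelled one, so SMAD3 passed the 2-fold limit in only the second of these comparisons, and not on log2(FPKM + 1), where its log2 ratio of late over peak was -0.93. It stood above 50.8%, 70.9% and 46.0% of detected protein-coding genes. SMAD2, whose main isoform needs SMAD4 to reach DNA, had 8.48, 9.30 and 8.44 FPKM, a range of 1.10-fold. The order of the pair was therefore turned in the peak-labelled library. SMAD3 stood at 0.851 of SMAD2 in the early-labelled, 1.35 times SMAD2 in the peak-labelled and 0.726 of SMAD2 in the late-labelled library.

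SMAD4, the partner shared with the bone morphogenetic protein (BMP) branch, had 16.3, 19.2 and 17.5 FPKM, a range of 1.18-fold, and was the third most abundant member in every library. Its FPKM was 1.04 times the sum of SMAD2 and SMAD3 in the early-labelled, 0.881 of it in the peak-labelled and 1.20 times it in the late-labelled library. SMAD7, the inhibitory member and a direct feedback target of the pathway, had 1.99, 2.53 and 2.19 FPKM. SMAD7 stayed low throughout, above 19.1%, 19.8% and 22.4% of detected protein-coding genes. The peak-labelled value was 1.27 times the early-labelled one, much less than the difference of TGFB1 or TGFB3 and short of the limit. The FPKM of SMAD4 was between 7.60 and 8.16 times that of SMAD7 in the 3 libraries.

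By level, the early- and late-labelled libraries shared the order TGFBR3, TGFBR2, SMAD4, TGFBR1, TGFB2, SMAD2, SMAD3 and SMAD7, followed by TGFB1 and TGFB3, whose places were exchanged between them. In the peak-labelled library TGFB2 and SMAD3 stood above TGFBR1, and SMAD7 took the last place behind TGFB1 and TGFB3. With 1 library per stage, no spread is available to say which neighbours in this order differ.

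**Figure D3:**
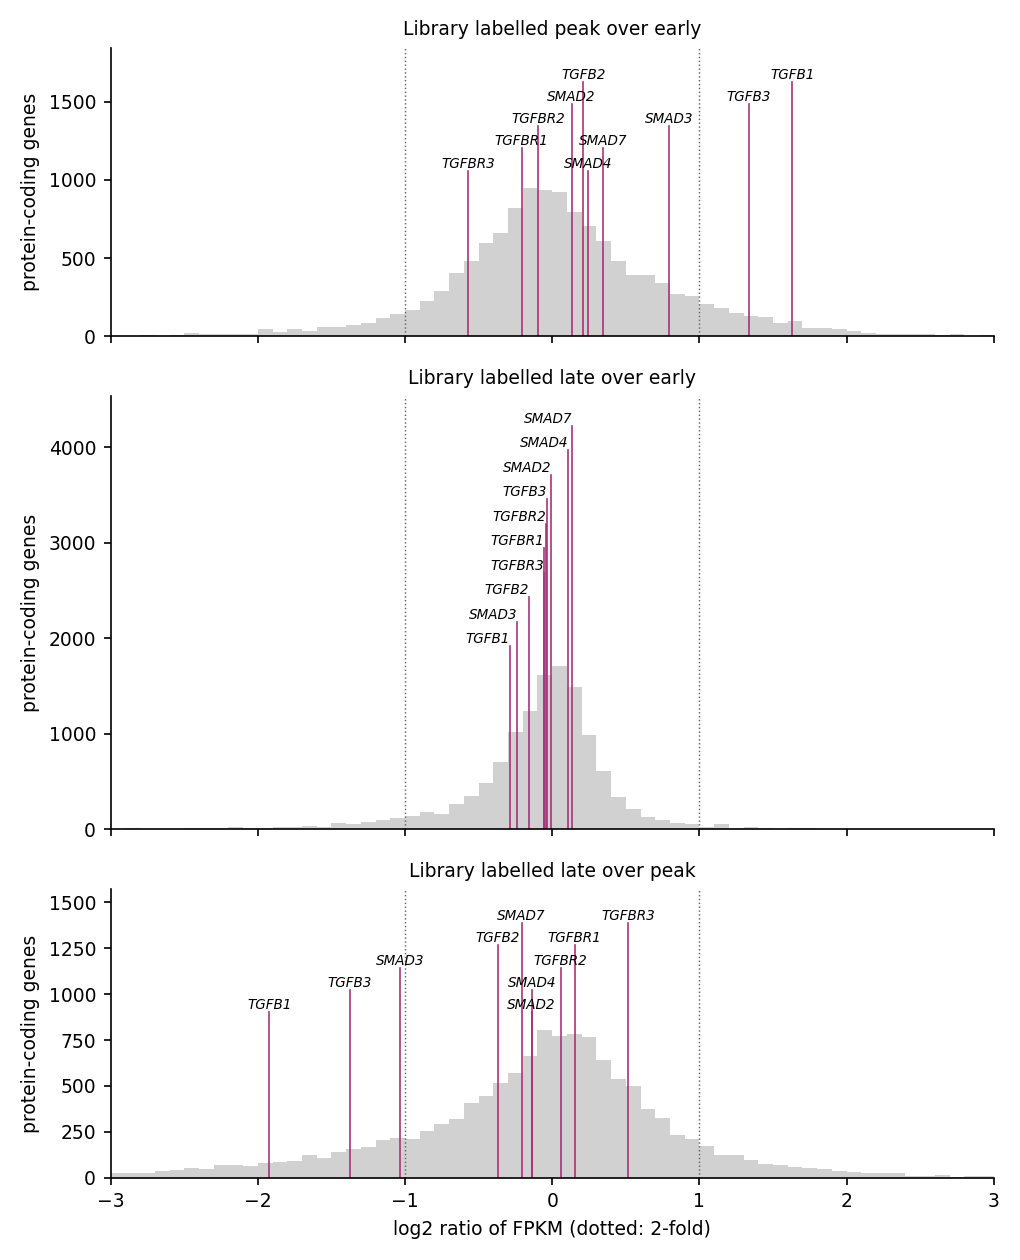
Grey bars count protein-coding genes by their log2 ratio of FPKM (horizontal axis, shown from -3 to 3) for the 3 pairs of libraries, and each line marks a member. TGFB1 and TGFB3 lie past the dotted 2-fold limit of the peak- over early-labelled comparison, all 10 lines fall near 0 for late over early, and TGFB1, TGFB3 and SMAD3 lie below -1 for late over peak.

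The ratio of the peak- to the early-labelled library depended on the level of a gene over the whole gene set, and the members were spread over that range. Protein-coding genes were binned by mean FPKM over the 3 libraries, a split chosen after the values were seen. The median log2 ratio of peak- over early-labelled FPKM went from 0.45 among 1242 genes of 1 to 2 FPKM to -0.48 among 278 genes of 64 to 128 FPKM. TGFB1, TGFB3 and SMAD7 fall among the 1952 genes of 2 to 4 FPKM, with a median of 0.30 and 15.3% at least 2-fold higher. The log2 ratios of TGFB1 and TGFB3, 1.63 and 1.34, lay above that median, while SMAD7, at 0.35, lay near it. SMAD3 falls among the 2937 genes of 8 to 16 FPKM, with a median of -0.06 (3.58% at least 2-fold higher), and its log2 ratio was 0.80. In that bin TGFB2 and SMAD2, at 0.21 and 0.13, also lay above the median, and TGFBR1, at -0.21, lay below it. SMAD4, at 0.24, lay above the median of -0.23 of the 1808 genes of 16 to 32 FPKM. TGFBR3 belongs to the bin of 64 to 128 FPKM, so its log2 ratio of -0.57 was close to the median of its bin. TGFBR2, at -0.10, lay above the median of -0.34 of the 755 genes of 32 to 64 FPKM. Between the late- and early-labelled libraries the medians of these bins stayed between -0.17 and 0.06.

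**Figure D4:**
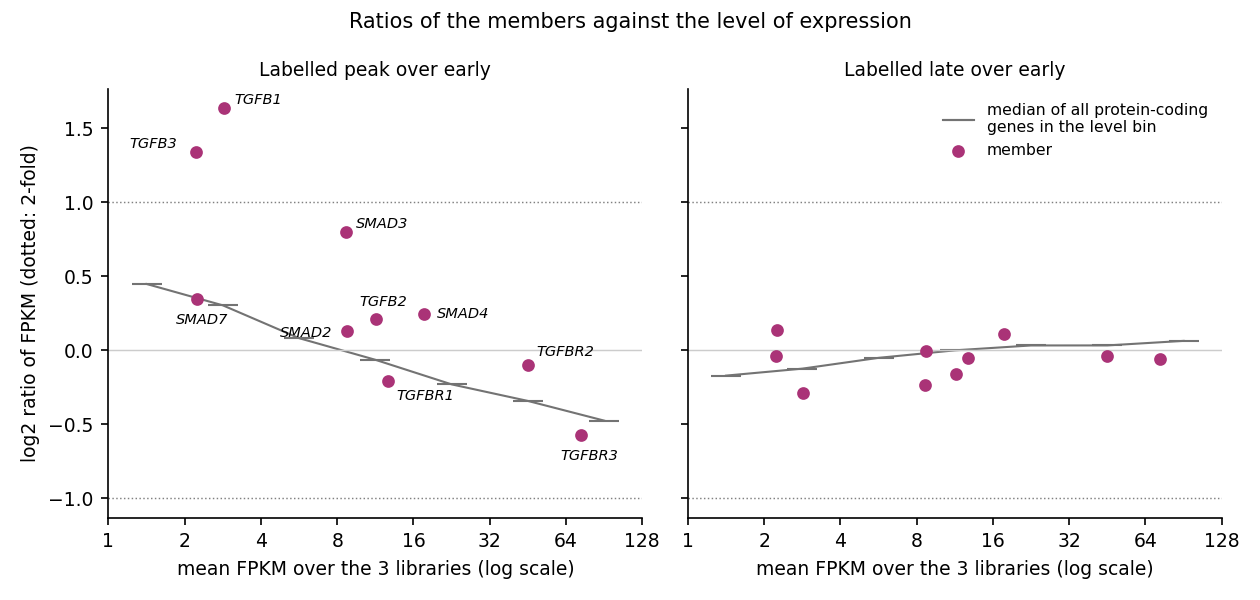
Log2 ratio of FPKM (vertical axis) against mean FPKM over the 3 libraries (horizontal axis, log scale) for the 10 members (points) and the median of all protein-coding genes in each level bin (line). On the left, peak- over early-labelled, the line descends from 0.45 to -0.48 and TGFB1, TGFB3 and SMAD3 lie furthest above it. TGFB2, SMAD2, SMAD4 and TGFBR2 also lie above it, SMAD7 and TGFBR3 lie near it, and TGFBR1 lies below it. On the right, late- over early-labelled, points and line stay near 0.

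The 84 other genes of the pathway with a value, of 92 listed by role, give the setting. Between the peak- and early-labelled libraries 16 were at least 2-fold higher and 5 at least 2-fold lower in the peak-labelled one. Of all genes 10.9% and 6.8% were. Together these are 21 of 84, beside the 17.7% of all genes. Rescaled without the 20 most abundant loci the split was 28 higher and 3 lower, beside 16.1% and 4.47% of all genes. Rescaled to all loci it was 23 higher and 3 lower, beside 13.8% and 5.21%. In the late-labelled library 3 (SNAI1, CDKN2B and FST) were 2-fold higher and 11 lower than in the early-labelled one, beside 1.97% and 6.74%. SNAI1 (0.130 and 0.287 FPKM in the early- and late-labelled libraries) and CDKN2B (0.263 and 1.20 FPKM) were low. ZEB1, among the lower, was listed at 0 in the late-labelled library. On log2(FPKM + 1) 0 were higher and 5 lower, beside 0.546% and 1.58% of all genes. Between the late- and peak-labelled libraries 2 (POSTN and FST) were higher and 28 lower in the late-labelled one, beside 8.56% and 17.4%.

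Genes of latency and activation had the highest median log2 ratio of peak- over early-labelled FPKM, 0.78 over 16 genes, with 14 of them higher and 5 at least 2-fold higher, beside 10.9% of all genes. These 5, named after their values were seen, were LTBP2, LTBP4, NRROS, ITGB3 and ITGB8, which code for latent TGF-beta binding proteins, an anchor of latent TGF-beta on myeloid cells and integrin subunits. LTBP4, the most abundant latent TGF-beta binding protein here, had 28.2, 70.4 and 31.1 FPKM in the early-, peak- and late-labelled libraries. NRROS had 1.60, 4.83 and 1.58 FPKM, and FURIN, the protease that cleaves the ligand precursors, also picked after its values were seen, had 8.21, 15.8 and 6.43 FPKM. All 3 were highest in the peak-labelled library, as TGFB1 and TGFB3 were.

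The integrins that release TGF-beta from its latent complex did not share a pattern. ITGB8 had 2.28, 8.23 and 1.55 FPKM and was 3.61-fold higher in the peak- than in the early-labelled library. ITGB6, an epithelial subunit, had 23.6, 25.0 and 4.50 FPKM, level between the early- and peak-labelled libraries and 5.25-fold higher in the early- than in the late-labelled one. THBS1, thrombospondin 1, another activator of latent TGF-beta, had 51.3, 61.2 and 16.3 FPKM and was 3.15-fold higher in the early- than in the late-labelled library. The late-labelled library was the lowest of the 3 for each of these genes, and ITGB6 and THBS1 separated it from the early-labelled library, where no member did.

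Accessory receptors and ligand traps gave 6 measured genes, all of them higher in the peak- than in the early-labelled library and none 2-fold. Decorin (DCN), a matrix proteoglycan that binds TGF-beta, had 131, 254 and 106 FPKM in the early-, peak- and late-labelled libraries. Fibromodulin (FMOD), a related proteoglycan, had 3.54, 3.98 and 1.83 FPKM. Endoglin (ENG), an endothelial co-receptor, had 7.53, 9.59 and 9.24 FPKM. DCN and FMOD were at least 2-fold lower in the late- than in the peak-labelled library.

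Adaptors and feedback regulators gave 14 genes, and 0 of them differed 2-fold in any of the 3 comparisons of FPKM as deposited. Of all genes, 17.7% differed for peak over early, 8.71% for late over early and 25.9% for late over peak. The widest differences were those of TGIF1, SKIL and PMEPA1. TGIF1, a nuclear corepressor of SMADs, had 5.67, 10.3 and 5.27 FPKM. SKIL, which codes for the corepressor SnoN and is itself a TGF-beta target, had 6.08, 10.5 and 5.39 FPKM. PMEPA1, a feedback inhibitor that keeps SMAD2 and SMAD3 from the receptor, had 4.90, 9.17 and 6.59 FPKM. The 3 genes were highest in the peak-labelled library, and each difference was short of 2-fold in FPKM as deposited, as it was for SMAD7. Their log2 ratios of peak over early were 0.86, 0.79 and 0.90, and that of SMAD3 was 0.80. Rescaling without the 20 most abundant loci, which brought SMAD3 to 1.04, adds the same amount to every such ratio. The count of 0 therefore depends on the scaling.

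Nuclear partners of the SMADs other than FOXH1 were even. Of 7 genes measured, 0 were 2-fold apart between the peak- and early-labelled libraries, beside 17.7% of all genes. Their median log2 ratio of peak- over early-labelled FPKM was -0.02. RBL1, which codes for p107, a partner in repressing MYC, had 2.80, 2.59 and 2.92 FPKM, and the coactivator EP300 had 10.8, 9.87 and 11.1 FPKM. FOXH1, a DNA-binding partner best known from the embryo, had 2.57, 3.86 and 0.586 FPKM, and its early-labelled value was 4.38 times the late-labelled one.

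Known target genes went in both directions. Of 22 measured, 6 were at least 2-fold higher and 5 at least 2-fold lower in the peak- than in the early-labelled library. Of all genes 10.9% and 6.8% were, with FPKM as deposited. Among the higher targets, SNAI1 and CDKN2B were under 1 FPKM in the early-labelled library. KLF10, an early-response target, had 2.66, 7.39 and 1.04 FPKM. JUNB, also an immediate early gene, had 18.6, 43.9 and 8.68 FPKM. TIMP1, an inhibitor of matrix proteases, had 11.7, 34.2 and 8.69 FPKM. All 3 were 2-fold or more above the early-labelled library in the peak-labelled one, and KLF10 and JUNB were also over 2-fold lower in the late-labelled one.

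The 5 lower targets, named after their values were seen, were CCN2, COL1A2, COL3A1, POSTN and SPARC, which code for matrix proteins. COL1A2 and COL3A1, with log2 ratios of -1.07 and -1.06, were nearest to the limit. Under either rescaling only 3 pathway genes stayed 2-fold lower, without COL1A2 and COL3A1. Among all genes of 64 to 128 FPKM, where COL1A2 and SPARC fall by mean FPKM, 18.3% were 2-fold lower. At 8 to 16 FPKM, where POSTN falls, the share was 4.73%. CCN2, connective tissue growth factor, had 49.5, 18.3 and 24.3 FPKM in the early-, peak- and late-labelled libraries. COL1A2 and COL3A1, fibrillar collagen chains, had 138, 65.8 and 106 FPKM and 255, 123 and 220 FPKM. POSTN, periostin, had 12.1, 4.31 and 14.4 FPKM. These 5 were picked for their lower values in the peak-labelled library, and other matrix targets were highest there, with FN1 (fibronectin) at 41.6, 59.1 and 34.7 FPKM and TGFBI at 10.9, 15.7 and 10.4 FPKM. ZEB1, a repressor of epithelial genes, was listed at 0 in the late-labelled library and had 0.739 and 0.388 FPKM in the others.

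**Figure D5:**
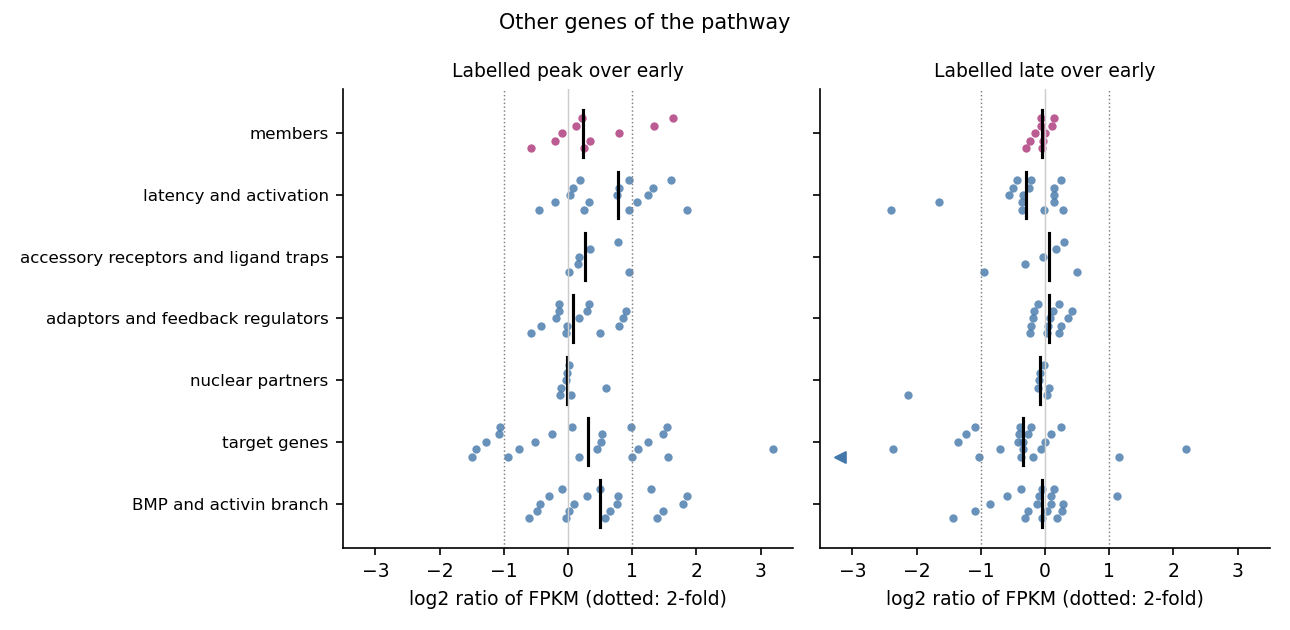
Log2 ratio of FPKM (horizontal axis) for the 10 members and for the 84 other pathway genes by list (rows), peak- over early-labelled on the left and late- over early-labelled on the right, with a point per gene, a black bar at each median and dotted lines at 2-fold. Targets spread to both sides on the left while nuclear partners stay near 0, and the arrowhead stands for ZEB1, listed at 0 in the late-labelled library.

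The BMP and activin branch uses SMAD4 but other receptors, and only its BMP part uses other receptor-regulated SMADs. Its median log2 ratio of peak- over early-labelled FPKM was 0.50 over 19 genes. Of these, 5 (BMP2, SMAD9, INHBB, GREM1 and CHRD) were at least 2-fold higher and 0 lower, beside 10.9% and 6.8% of all genes. BMP2, SMAD9 and CHRD were under 1 FPKM in the early-labelled library. INHBB, the activin B subunit, had 4.03, 11.3 and 1.89 FPKM. GREM1, an antagonist of BMPs, had 5.65, 19.6 and 3.76 FPKM. FST, follistatin, which binds activin, went the other way, with 4.13, 3.06 and 8.99 FPKM. Among its receptors and SMADs, picked after their values were seen, BMPR1A had 19.9, 18.7 and 22.0 FPKM and SMAD5 had 20.2, 19.9 and 23.0 FPKM, while SMAD1 had 6.98, 11.8 and 6.72 FPKM and SMAD9 had 0.755, 2.72 and 0.910 FPKM.

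Genes whose pattern over the 3 libraries was most like that of TGFB1 and TGFB3 were found by the distance between log2 FPKM profiles centred on their means, among 11086 protein-coding genes with at least 1 FPKM in each library. For TGFB1 these were SRXN1, TIGIT, IGFBP4, BST1 and ATP8A2, with distances from 0.04 to 0.05 on the log2 scale. IGFBP4, a binding protein of insulin-like growth factors, had 18.0, 55.1 and 14.2 FPKM, and TIGIT, a receptor of lymphocytes, had 1.33, 4.03 and 1.10 FPKM. For TGFB3 they were TRPM4, ANK2, HDAC9, CXXC5 and MET, with distances from 0.02 to 0.05. MET, the receptor of hepatocyte growth factor, had 8.51, 20.5 and 7.90 FPKM. A profile over 3 libraries is a weak description, and likeness in it is no sign of a shared control.

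The loci of all 10 genes were single entries that overlapped no other entry, and the scaffold positions are those listed with the FPKM, whose assembly was not named there. TGFB1 lies on scaffold NW_005100869.1 from 19059513 to 19073350, TGFB2 on NW_005100845.1 from 2352289 to 2443492 and TGFB3 on NW_005100767.1 from 355892 to 380576. SMAD2, SMAD7 and SMAD4 share scaffold NW_005100928.1, where they span 8742306 to 8804314, 9855490 to 9883675 and 11797127 to 11833406. SMAD3 lies on NW_005100759.1 from 10120214 to 10243542. The 3 SMADs on one scaffold did not include SMAD3, the SMAD that differed most. TGFBR1, TGFBR2 and TGFBR3 lie on NW_005100740.1 from 6031308 to 6116740, NW_005100910.1 from 3046998 to 3099780 and NW_005100639.1 from 12027816 to 12204396. Their NCBI gene IDs are 102191364 (TGFB1), 100861228 (TGFB2), 102189962 (TGFB3), 102187767 (TGFBR1), 100861300 (TGFBR2), 102169722 (TGFBR3), 102188455 (SMAD2), 102169293 (SMAD3), 100861019 (SMAD4) and 102190008 (SMAD7). The locus spans, introns included, ran from 13838 nt for TGFB1 to 176581 nt for TGFBR3.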

How the data were processed

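Illumina reads of 3 pooled libraries were trimmed by the authors and mapped with TopHat2 2.0.9, and transcripts were assembled with Cufflinks 2.1.1 and merged (versions from the submitters' processing notes). The authors deposited FPKM for 50041 loci, estimated with Cuffdiff, in 1 column per library. Of the values with 7 digits, 95.7%, 99.3% and 97.3% in the early-, peak- and late-labelled columns end in 5, as a mean of 2 values of 6 digits would. What was averaged is not given in the sources used here.

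Columns were assigned by the sample labels. Names came from a RefSeq list of ARS1.2 genes, joined by gene ID for 14403 of 15274 loci, and loci of a gene were summed. Ratios used FPKM as deposited, with 0 set to 0.001 and calls at 2-fold. No statistical test was run. Fold calling was tested on simulated data. Pathway genes named were the 3 per list with the widest ratio, where both values reached 1 FPKM, and the 5 genes most like TGFB1 and TGFB3 were named too. Others are named as picked later. CCN2 was matched by its older symbol CTGF. The members and lists were chosen with earlier results of these data known. Python 3.11.15, numpy 2.4.6, pandas 2.3.3 and matplotlib 3.10.9 were used.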

Additional observations from a re-analysis of the deposited data

How the results depend on the processing

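No paired analysis was possible because the libraries are single pools, and for the same reason none was left out as a replicate. Members at least 2-fold apart numbered 2 for peak over early, 0 for late over early and 3 for late over peak lactation by label. At 4-fold there were 0, 0 and 0, and on log2(FPKM + 1) there were 1, 0 and 1, since both call fewer genes by construction. With the columns labelled peak and late exchanged, there were 0, 2 and 3. Over all comparisons 3 members differed 2-fold. With the peak-labelled library left out, a setting chosen after seeing the data, there were 0. That setting leaves only the late- over early-labelled comparison and so restates its count. With the exchange, the log2 ratios of peak over early turned to -0.29 for TGFB1 and -0.039 for TGFB3, and those of late over peak to 1.92, 1.37 and 1.03 for TGFB1, TGFB3 and SMAD3.

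The median log2 ratio of the members, 0.23, -0.05 and -0.17 in the same order, became 0.21 for peak over early and -0.14 for late over peak on log2(FPKM + 1), 0.25, -0.035 and -0.21 with ratios centred on protein-coding genes, 0.47, -0.020 and -0.39 rescaled without the 20 most abundant loci, 0.37, 0.080 and -0.19 rescaled to all loci, and -0.047, 0.23 and 0.17 with the exchange. Rescaling moved the median of protein-coding genes for peak over early from -0.03 to 0.21 and 0.12. SMAD3 then reached 1.04 without the 20 loci. Pathway genes numbered 21, 14 and 30, beside 17.7%, 8.71% and 25.9% of all genes. At 1.5-fold there were 39 for peak over early (31 higher, 8 lower), beside 21.1% higher and 15.7% lower of all genes. For late over peak there were 48 (9 higher, 39 lower), beside 17.9% and 26.1%. At 4-fold there were 1, 5 and 11. Of all genes, 2.20% were then higher and 1.36% lower for peak over early. The shares were 0.684% and 2.60% for late over early and 1.91% and 6.75% for late over peak. On log2(FPKM + 1) there were 15, 5 and 24, beside 4.61% higher and 4.56% lower, 0.546% and 1.58%, and 5.91% and 9.33%. The share of pathway calls higher in the peak- than in the early-labelled library was 76.2%, beside 61.6% over all protein-coding genes. It was 90.3% without the 20 loci and 88.5% rescaled to all loci, beside 78.3% and 72.6%. On log2(FPKM + 1) it was 66.7%, beside 50.3%.

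A pseudocount cannot turn the direction of a ratio. Directions of TGFB1, TGFB3, SMAD3 and TGFBR3 for peak over early held under centring and under both rescalings. Those of TGFBR1 (up to 0.03) and TGFBR2 (up to 0.15) did not. For late over early, SMAD2, TGFB3 and the receptors changed sign under a rescaling. No cause was tested beyond the settings' own construction.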

Other observations

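Within 10000 nt of the 10 loci lie 6 other annotated loci and 31 without a gene ID, and 0 of them overlap a member. Beside TGFB1, the locus of B9D2, at a distance of 938 nt, had 1.59, 3.24 and 1.46 FPKM in the early-, peak- and late-labelled libraries, a ratio of 2.04 for peak over early against 3.10 for TGFB1. Beside TGFB3, IFT43, at 1387 nt, had 1.59, 3.21 and 1.04 FPKM, a ratio of 2.02 against 2.52 for TGFB3. Both neighbours code for proteins of the primary cilium, and both are genes of low level, among which higher values in the peak-labelled library were common. CCDC97, at 5546 nt from TGFB1, had 5.38, 6.14 and 5.50 FPKM, and AAGAB, at 8799 nt from SMAD3, had 10.9, 10.6 and 13.3 FPKM.

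Loci without a gene ID also lie next to TGFB2 and TGFBR3. A locus 570 nt from TGFB2 had 9.43, 19.2 and 8.87 FPKM, higher in the peak-labelled library where TGFB2 itself was nearly level. Another, 535 nt from TGFBR3, had 8.44, 3.77 and 6.01 FPKM, lowest in the peak-labelled library as TGFBR3 was. Whether these loci belong to transcripts of the genes was not tested. Of the 31 loci without a gene ID, 6 were at least 2-fold higher and 4 at least 2-fold lower in the peak- than in the early-labelled library, beside 23.2% and 18.7% of all 34726 such loci above 0 in either library. In the late- against the early-labelled library, 4 were higher and 2 lower, beside 13.4% and 17.9%.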
